A study of Mus musculus with 2 samples.

Results

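The interferon gamma signaling core was followed here as 9 genes of 32285 in the count matrices, picked by symbol: the ligand Ifng, the receptor chains Ifngr1 and Ifngr2, the kinases Jak1 and Jak2, the transcription factors Irf1 and Irf8, the feedback inhibitor Socs1 and the class II transactivator Ciita. Each symbol matched 1 row. The data were 2 single-cell RNA libraries of subcutaneous MC38 tumors, a mouse colon carcinoma line, 1 from wild-type hosts (Lmo7+/+) and 1 from hosts with a global deletion of Lmo7 (Lmo7-/-). Hosts were young adult female mice of C57BL/6 background, and the implanted tumor cells were not deleted for Lmo7 in either library. How many mice each library holds is not stated, so there was no replicate of a genotype, no test was possible, and every interval covers counting error only. With 1 library each, genotype and library cannot be told apart.

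Interferon gamma is made mainly by activated T cells and NK cells. It binds a receptor of IFNGR1 and IFNGR2 chains, which carry the kinases JAK1 and JAK2. Signaling through them induces IRF1, and antigen presentation genes through CIITA, while SOCS1 dampens the kinases.

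After filtering, 13542 and 11860 cells were kept from the Lmo7+/+ and Lmo7-/- libraries, at medians of 4536 and 4305 UMIs (unique transcript counts) per cell. The libraries shared 279 barcodes, of which 175 were kept in both, 57 of them in the same class. Cells were clustered without the 9 genes and named by marker genes, or for tumor cells by likeness to the main tumor profile, giving among others 6415 and 4964 tumor cell-like, 3285 and 3869 macrophage-like, 1054 and 932 M-MDSC-like (monocytic myeloid-derived suppressor), 312 and 199 dendritic-like, 439 and 614 T-like and 78 and 54 NK-like cells. All macrophage, M-MDSC, dendritic, T and NK markers reached 5 CPM (UMIs per 1000000 UMIs of the class) in the class they name. Of 18 tumor markers, mostly epithelial genes, 8 reached it in tumor cell-like cells, where Ptprc, the leukocyte gene for CD45, was at 6.19 and 6.90 CPM. Lmo7 itself had 35 UMIs (1.29 CPM) in the host classes of the Lmo7+/+ library and 29 (1.09 CPM) in those of the Lmo7-/- library. The deleted part of the gene is not given in the sources used here, so the Lmo7 counts do not check the genotype, and Lmo7-/- below names the library by its label.

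Positions of the genes are given in the genome build mm10, as annotated by GENCODE. Ifng (chr10:118441046-118445892) and Ifngr1 (chr10:19591949-19610229) shared a chromosome, and so did Socs1 (chr16:10782240-10785536), Ciita (chr16:10480059-10528418) and Ifngr2 (chr16:91547072-91565623). Socs1 and Ciita lay near each other, and Ifngr2 lay far from both. Jak1 (chr4:101152367-101265282), Irf8 (chr8:120736358-120756694), Irf1 (chr11:53770014-53778374) and Jak2 (chr19:29251828-29313080) were alone on theirs.

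The promoters of the 3 inducible regulators with a match to an interferon motif are shown because the level of these genes differed between the libraries. RefSeq windows of 300 bases (250 before the start, 50 after; GRCm38.p6) were present for 8 of the 9 genes; Ciita was not in the table. Capitals mark matches to the interferon gamma activation motif TTCNNNGAA or to the interferon response motif ISRE, written here as GAAA, 2 bases of any kind and GAAA again, both read on both strands.
Irf1, chr11:53769764-53770063, plus strand: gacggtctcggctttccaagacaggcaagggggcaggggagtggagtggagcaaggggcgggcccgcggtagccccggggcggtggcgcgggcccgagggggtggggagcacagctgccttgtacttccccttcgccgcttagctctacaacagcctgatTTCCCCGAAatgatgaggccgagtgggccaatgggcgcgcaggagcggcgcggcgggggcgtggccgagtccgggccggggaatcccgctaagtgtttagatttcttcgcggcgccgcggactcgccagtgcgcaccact
Irf8, chr8:120736108-120736407, plus strand: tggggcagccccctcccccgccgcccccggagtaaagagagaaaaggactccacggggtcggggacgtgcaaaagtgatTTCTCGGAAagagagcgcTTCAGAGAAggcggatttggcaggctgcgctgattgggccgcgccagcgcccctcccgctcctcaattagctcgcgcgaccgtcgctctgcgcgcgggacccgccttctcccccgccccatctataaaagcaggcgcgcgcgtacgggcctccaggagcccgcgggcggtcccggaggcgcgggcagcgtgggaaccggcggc
Socs1, chr16:10785487-10785786, minus strand: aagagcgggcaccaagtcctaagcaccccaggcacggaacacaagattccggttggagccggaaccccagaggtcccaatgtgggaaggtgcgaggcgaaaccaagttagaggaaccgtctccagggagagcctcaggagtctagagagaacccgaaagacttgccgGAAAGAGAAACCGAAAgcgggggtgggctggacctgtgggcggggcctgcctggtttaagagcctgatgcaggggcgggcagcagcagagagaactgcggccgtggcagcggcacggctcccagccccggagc
In the windows shown, Irf1 held 1 TTCNNNGAA starting 90 bases before the start site. Irf8 held 2, at 171 and 153 bases before it, and Socs1 held 2 overlapping ISRE matches, at 83 and 77 bases before it. Irf1 and Irf8 each had another window (chr11:53770223-53770522 and chr8:120738389-120738688), which held neither motif. The 8 genes had 10 windows in all. The Ifng window also held 1 TTCNNNGAA, 249 bases before the start, while Ifngr1, Ifngr2, Jak1 and Jak2 had neither motif. Among all 32851 windows, 8.30% held TTCNNNGAA and 3.44% the ISRE motif. A match is a description of letters, not of binding.

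Most Ifng, the ligand, was found in T-like cells. T-like cells held 177 of 215 Ifng UMIs in the Lmo7+/+ library (82.3%, exact binomial interval 76.6 to 87.2) and 262 of 319 in the Lmo7-/- library (82.1%, 77.5 to 86.2). NK-like cells added 6 and 0 UMIs. Unnamed droplets held 30 and 45, of which 23 and 38 were in droplets with markers of both T cells and macrophages. All other classes together held 2 and 12, of which 5 of the latter lay in 3 endothelial-like cells.

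The level of Ifng in T-like cells was 140 CPM in the Lmo7+/+ library and 150 CPM in the Lmo7-/- library. The log2 ratio, Lmo7-/- over Lmo7+/+, was 0.09 (95% interval -0.19 to 0.38). Thinned to 1500 UMIs per cell, which dropped 109 and 164 T-like cells below that depth, 30 of 330 (9.09%) and 43 of 450 (9.56%) carried Ifng. Before thinning the shares were 14.4% and 14.7%. The difference after thinning was 0.46 percentage points (Newcombe interval -3.84 to 4.52). As background, 1 of 5795 and 0 of 4436 thinned tumor cell-like cells had an Ifng UMI. The latter allows a share of up to 0.0676%, by an approximate limit that is tighter than an exact interval. Unthinned medians were 6465 and 6137 UMIs, against 2207 and 2160 in T-like cells. A few cells carried much of the signal: the 10 T-like cells richest in Ifng held 55.9% and 49.2% of the T-like Ifng UMIs, with up to 28 and 27 UMIs in 1 cell. Among T-like cells, 47.6% and 47.9% also held a UMI of a macrophage marker, and without these cells the log2 ratio of Ifng was -0.52.

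Ifng was spread unevenly over the clusters of T-like cells. In the cluster led by Gzmg and Gzme, granzyme genes of cytotoxic cells, 4 cells of the Lmo7+/+ library had 203 CPM from 3 UMIs and 30 cells of the Lmo7-/- library had 744 CPM from 89 UMIs. In the cluster led by Tnfsf8 and Csf2, the order was the opposite: 437 CPM against 212 CPM, a log2 ratio of -1.05 (-1.59 to -0.51). Its 85 and 47 Ifng UMIs lay in 19 of 64 and 12 of 78 cells, with up to 28 and 12 in 1 cell. The share of its cells with Ifng differed by -12 points after thinning to 1500 UMIs (-26.3 to 1.73). Without thinning the difference was -14.3 points (-28.0 to -0.59). The CD8 T-like cluster led by Fbxo5 and Ccna2, genes of dividing cells, had 134 and 134 CPM, and the one led by Hspa1a had 98.1 and 61.2 CPM. Regulatory T-like cells had 12.0 and 27.4 CPM from 2 and 5 UMIs, and the cluster led by S1pr1 and Ifit3 had 7.34 and 41.9 CPM from 1 and 5 UMIs.

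**Figure D1:**
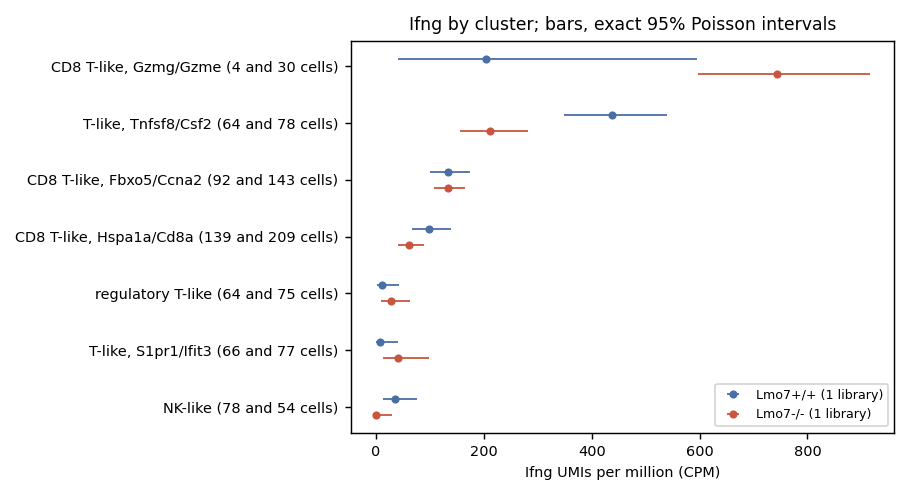
Ifng level (CPM, linear axis) in 7 clusters of T-like and NK-like cells, 1 point per library, with exact 95% Poisson intervals; cell numbers of the Lmo7+/+ and Lmo7-/- library stand beside each name. The Gzmg and Gzme cluster of the Lmo7-/- library is highest, at 744 CPM, and rests on 30 cells.

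In CD8 T-like cells as a whole Ifng was at 119 CPM in 235 cells and 168 CPM in 382 cells, a log2 ratio of 0.49 (0.12 to 0.86). Without the Gzmg and Gzme cluster, an alternative chosen after seeing the data, the ratio was -0.16, and in all T-like cells it was -0.39. It was -0.15 in CD8 T-like cells without a macrophage marker UMI, and 1.38 under a stricter filter on cells. The thinned share of CD8 T-like cells with an Ifng UMI was 9.64% and 10.5%, a difference of 0.86 points (-4.87 to 6.01). The Tnfsf8 and Csf2 cluster was not among these clusters. It held 37 and 41 cells with a Cd8a or Cd8b1 UMI and no Cd4 UMI, whose Ifng ratio was -0.71 (-1.63 to 0.17). For all T-like cells picked by those UMIs, 286 and 451 cells, the ratio was 0.27 (-0.07 to 0.63).

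Few macrophage-like cells held an Ifng UMI. None of 3285 cells of the Lmo7+/+ library did. This allows up to 0.0913% of cells with a UMI, not of cells expressing the gene, by 3 over the number of cells. This approximate limit is tighter than an exact interval would give. There were 3 UMIs in 3 of 3869 cells of the other library (0.0775%, 0.0160 to 0.226). Of these 3 cells, 2 also held a UMI of a T cell receptor, CD3 or CD8 gene, against 2.52% of all 7154 macrophage-like cells. Before thinning, the tumor cell-like class had 2 such cells of 6415 (0.0312%) in Lmo7+/+ and 0 of 4964 (exact interval up to 0.0743%) in Lmo7-/-, and after thinning no macrophage-like cell of either library did.

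The receptor chains were split between lineages. Ifngr1, the ligand-binding chain, was highest in NK-like cells, at 972 and 899 CPM, then in T-like cells, at 579 and 575 CPM, and lowest in tumor cell-like cells, at 45.5 and 43.1 CPM. Between lymphoid and myeloid cells Ifngr2, the signaling chain, ran the other way. It was highest in macrophage-like (183 and 173 CPM) and M-MDSC-like cells (178 and 175 CPM), whose intervals overlapped, and lowest in lymphoid cells. Tumor cell-like cells were low in this chain as well, at 40.4 and 33.6 CPM. T-like cells had 9.51 and 6.29 CPM from 12 and 11 UMIs, and NK-like cells 3 and 0 UMIs. Within lymphoid cells Ifngr1 reached 1064 and 1055 CPM in the cluster led by S1pr1 and Ifit3, and 365 and 342 CPM in the one led by Tnfsf8 and Csf2.

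Between the libraries the receptor chains lay close together in macrophage-like cells and further apart in some other classes. In macrophage-like cells the log2 ratio was -0.01 (-0.09 to 0.07) for Ifngr1 and -0.08 (-0.15 to -0.01) for Ifngr2. Tumor cell-like cells had 40.4 and 33.6 CPM of Ifngr2, a ratio of -0.26 (-0.36 to -0.17). The Ifngr2 ratio of -0.60 in T-like cells had an interval from -1.92 to 0.71, and it was 0.06 with doublets removed. In endothelial-like cells Ifngr1 was at 125 and 63.7 CPM from 61 and 26 UMIs, a ratio of -0.97 (-1.69 to -0.29).

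Jak1 and Jak2, the receptor-bound kinases, also differed by class. Jak1 was highest in NK-like (660 and 691 CPM) and T-like cells (422 and 418 CPM) and lowest in macrophage-like cells (147 and 148 CPM), whose intervals overlapped those of dendritic-like cells (160 and 150 CPM). Jak2 was highest in dendritic-like cells, at 239 and 267 CPM, and lowest in tumor cell-like cells, at 30.1 and 34.5 CPM. Among dendritic-like cells Jak2 stood at 607 and 486 CPM in the cluster led by Cacnb3 and Fscn1, the latter a marker of mature dendritic cells, and at 221 and 220 CPM in the one led by Xcr1, a marker of cross-presenting cells. Between the libraries Jak1 in macrophage-like cells had a log2 ratio of 0.01 (-0.07 to 0.08) and Jak2 of 0.22 (0.12 to 0.32).

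**Figure D2:**
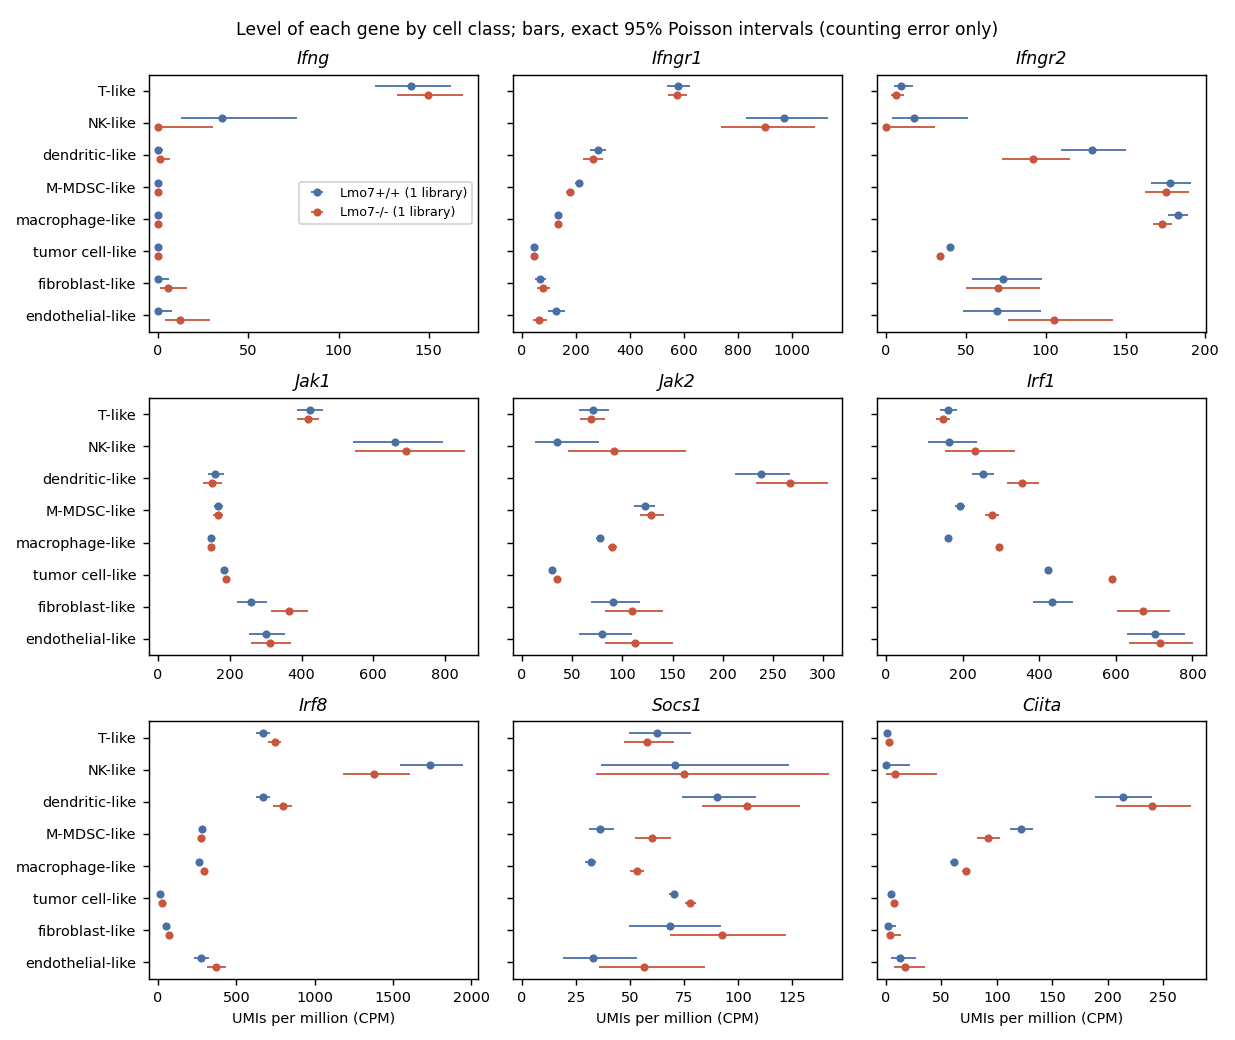
Level of each of the 9 genes (CPM, linear axes that differ between panels) in 8 cell classes, 1 point per library, with exact 95% Poisson intervals. Ifng is high in T-like cells, Ifngr2 in macrophage-like and M-MDSC-like cells, and the points of the libraries lie apart for Irf1 in macrophage-like cells (161 and 295 CPM).

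Irf1, a transcription factor gene that interferon gamma induces, was higher in the Lmo7-/- library in myeloid, tumor cell-like and fibroblast-like cells. In macrophage-like cells it was at 161 CPM in the Lmo7+/+ library and 295 CPM in the Lmo7-/- library, from 3045 and 5675 UMIs. The log2 ratio was 0.88 (0.81 to 0.94). The ratio was 0.51 (0.38 to 0.64) in M-MDSC-like, 0.50 (0.26 to 0.73) in dendritic-like, 0.48 (0.46 to 0.51) in tumor cell-like and 0.63 (0.40 to 0.86) in fibroblast-like cells. M-MDSC-like cells also differed between the libraries in summed markers. Tumor markers were at 341 and 582 CPM (2 of 18 higher in the Lmo7-/- library, 4 at zero counts) and neutrophil markers at 267 and 73.2 CPM (0 of 10 higher). Macrophage markers were at 9256 and 10454 CPM (8 of 12 higher), and the markers of the class itself at 3022 and 2413 CPM. The class also differed in 10 immediate early and heat shock genes, at 2920 and 2221 CPM. Dendritic-like cells had 3423 and 2993 CPM of the latter, T-like cells 1887 and 1335 CPM and endothelial-like cells 8251 and 5491 CPM. Their sum was lower in the Lmo7-/- library in tumor cell-like, NK-like and fibroblast-like cells too. The part of these values in the results was not tested. In T-like cells the Irf1 ratio was -0.13 (-0.40 to 0.14), and in endothelial-like cells, which had the highest level (703 and 715 CPM), 0.02 (-0.21 to 0.25). Thinned to 1500 UMIs, 18.4% and 30.4% of macrophage-like cells had an Irf1 UMI, against 44.8% and 56.5% unthinned.

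Socs1, the inhibitor, was highest per UMI in dendritic-like cells (114 and 87 UMIs), with intervals that overlapped those of the fibroblast-like class. It was at 31.8 and 53.2 CPM in macrophage-like cells, a log2 ratio of 0.74 (0.60 to 0.89), and at 36.3 and 60.2 CPM in M-MDSC-like cells, a ratio of 0.73 (0.43 to 1.04). In tumor cell-like cells, at 70.3 and 77.9 CPM, the ratio was 0.15 (0.08 to 0.21).

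Irf8, which directs myeloid and dendritic cell fate, was highest of the 8 classes with at least 20 cells in each library in NK-like cells, at 1738 and 1381 CPM, followed by dendritic-like (671 and 795 CPM) and T-like cells (669 and 745 CPM), where it reached 1696 and 1914 CPM in the Gzmg and Gzme cluster. The 28 plasmacytoid dendritic-like cells, too few to be among those classes, lay above them, with 2046 and 3425 CPM from 81 and 80 UMIs. Macrophage-like cells had 264 and 295 CPM, a log2 ratio of 0.16 (0.11 to 0.22). In tumor cell-like cells, where Irf8 was low, it was at 14.9 and 27.2 CPM, a ratio of 0.87 (0.75 to 1.00), and in the tumor cell-like cells with no UMI of a macrophage marker it had 177 and 299 UMIs, a ratio of 0.81 (0.53 to 1.08).

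Ciita, the switch for MHC class II genes, followed antigen-presenting cells. It was at 213 and 240 CPM in dendritic-like, 122 and 92.0 CPM in M-MDSC-like and 61.4 and 72.0 CPM in macrophage-like cells. The log2 ratio was 0.23 (0.12 to 0.34) in macrophage-like and -0.41 (-0.61 to -0.21) in M-MDSC-like cells. Tumor cell-like cells had 4.12 and 7.54 CPM, a ratio of 0.87 (0.63 to 1.11), which was 0.43 (-0.05 to 0.92) among those with no macrophage marker UMI. In all tumor cell-like cells the 12 macrophage markers summed to 234 and 265 CPM, with 9 of 12 higher in the Lmo7-/- library and 0 at zero counts.

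Counted against all genes with at least 20 UMIs, 2 of the 8 measured members lay past a log2 ratio of 0.5 upwards in macrophage-like cells (Irf1 and Socs1) and none downwards. The background there was 5.07% of 12124 genes higher and 8.04% lower. In tumor cell-like cells 2 of 8 were higher (Irf8 and Ciita), with Irf1 just inside at 0.48, against 5.19% of all genes higher and 5.71% lower. In M-MDSC-like cells 2 of 8 were higher (Irf1 and Socs1), against 4.80% higher and 9.26% lower. In T-like cells 1 of 8, Ifngr2, was lower, against 6.71% higher and 12.0% lower, and in dendritic-like cells none of 8 was past it, against 8.23% higher and 13.4% lower.

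**Figure D3:**
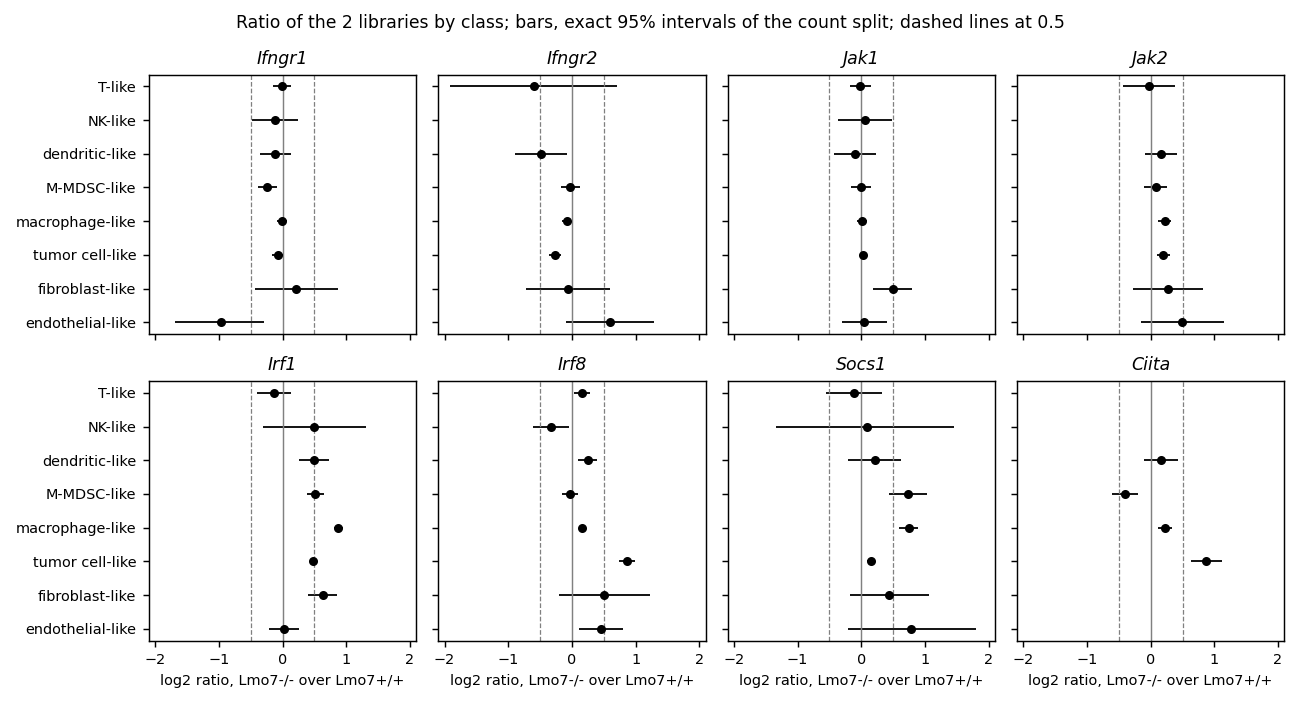
Log2 ratio of the libraries, Lmo7-/- over Lmo7+/+, for 8 genes in 8 classes with at least 20 UMIs in both libraries together and a UMI in each, with exact 95% intervals of the count split; dashed lines mark 0.5 either way. Irf1 lies right of 0 in macrophage-like (0.88) and tumor cell-like cells (0.48) but not in T-like cells (-0.13).

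The Irf1 difference ran through the macrophage-like clusters, which were made without the 9 genes. It was smallest in the 150 cells led by Klf2 and Hspa1a, at 0.40 (-0.06 to 0.86), and largest in the 754 led by Mmp12 and Gpnmb, where Irf1 was at 129 and 352 CPM, a log2 ratio of 1.45 (1.23 to 1.67). In the largest cluster, 1770 cycling cells led by Ccna2 and Pclaf, it was at 172 and 271 CPM, a ratio of 0.66 (0.55 to 0.77). Socs1 was also higher in the Lmo7-/- library in 7 of the 8 clusters, in 5 with an interval above 0, with a ratio of 1.02 (0.56 to 1.51) in the Mmp12 cluster and -0.73 (-2.23 to 0.60) in the Klf2 cluster. The Mmp12 cluster had the lowest Ciita, 19.1 and 29.5 CPM. The cluster led by Igkc and Ighg2b held 114 and 499 cells, so it was mostly of 1 library. Summed over 10 immediate early and heat shock genes, chosen after seeing the data, macrophage-like cells had 3767 and 3220 CPM, lower in the library where Irf1 was higher, and their part in the result was not tested. The 342 cells led by H19 and Sparc, genes also high in tumor cells, had an Irf1 ratio of 0.47 (0.19 to 0.76).

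**Figure D4:**
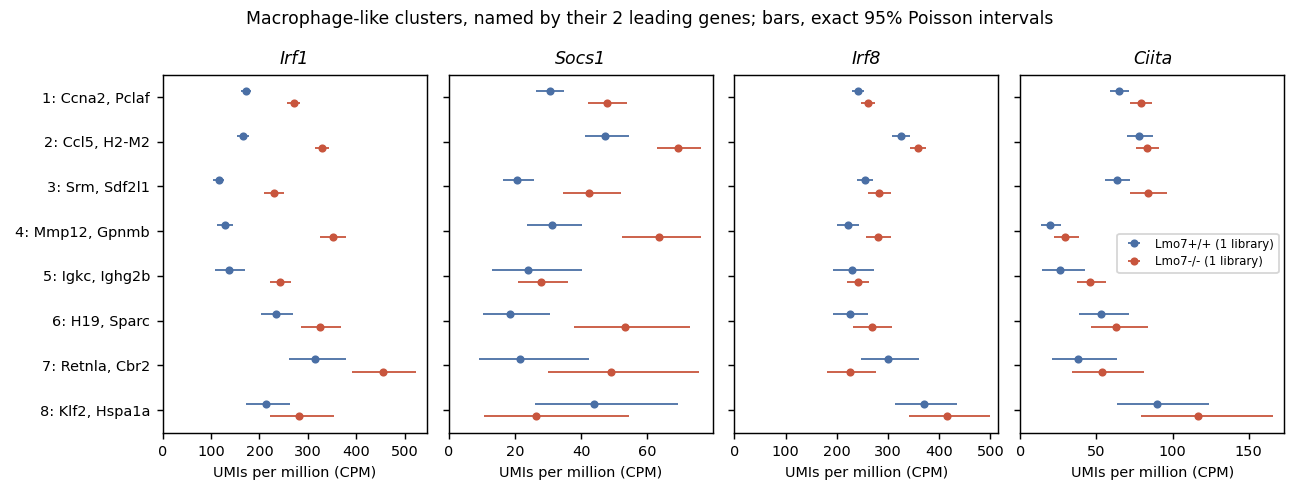
Irf1, Socs1, Irf8 and Ciita (CPM, linear axes from 0) in 8 clusters of macrophage-like cells, each numbered and named by its 2 leading genes, 1 point per library, with exact 95% Poisson intervals. Irf1 of the Lmo7-/- library lies above that of the Lmo7+/+ library in each cluster, by most in cluster 4 (129 and 352 CPM), with overlapping intervals in cluster 8.

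The ratios also varied between tumor cell-like clusters. In the 1159 cells led by Enpp2 and Serpine2, Irf1 was at 647 and 1059 CPM, a log2 ratio of 0.71 (0.65 to 0.77), Irf8 at 14.6 and 42.8 CPM, and Jak2 at 54.3 and 85.7 CPM. Socs1 there had 342 and 531 UMIs, a ratio of 0.65 (0.45 to 0.85). In the largest cluster, 4029 cells led by Cdsn and Car9, Irf1 was at 412 and 453 CPM, a ratio of 0.14 (0.09 to 0.18), and Socs1 at 77.2 and 68.6 CPM, a ratio of -0.17 (-0.28 to -0.06). The cluster led by Zdhhc2 and Hist1h4i, of which 71.8% of cells came from the Lmo7-/- library, had 356 and 632 CPM, and without it, an alternative chosen after seeing the data, the Irf1 ratio of all tumor cell-like cells was 0.46.

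Macrophage-like cells with a UMI of Cxcl9, a chemokine gene induced by interferon gamma, were compared within each library with those lacking one after thinning. The log2 ratio of Irf1, cells with over cells without, was 0.59 (0.37 to 0.80) in the Lmo7+/+ and 0.24 (0.09 to 0.39) in the Lmo7-/- library. Irf8 had 0.42 (0.26 to 0.59) and 0.48 (0.32 to 0.65), and Ciita 0.49 (0.14 to 0.84) and 0.44 (0.11 to 0.77). Socs1 had 0.09 (-0.40 to 0.57) and 0.78 (0.38 to 1.20). Of the response genes, Nos2 had -0.88 (-1.51 to -0.28) and 0.10 (-0.15 to 0.35), and Cd274, the gene for PD-L1, had 0.38 (0.16 to 0.61) and 0.08 (-0.08 to 0.23). Ifngr1 was lower in the cells with Cxcl9, at -0.23 (-0.48 to 0.01) and -0.33 (-0.55 to -0.11). Actb, a structural gene, had 0.05 and -0.00. In M-MDSC-like cells split the same way, Irf1 had 0.12 (-0.28 to 0.50) and 0.20 (-0.08 to 0.48). Ciita there had 0.04 (-0.49 to 0.55) and 0.36 (-0.16 to 0.88), and Irf8 0.90 (0.59 to 1.21) and 0.44 (0.12 to 0.75). Socs1 had 0.97 (0.09 to 1.81) and 0.90 (0.27 to 1.55), and Nos2 1.05 (0.03 to 2.01) and 0.77 (0.22 to 1.34).

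Of a list of 41 interferon gamma response genes, 40 were in the files and had at least 20 UMIs in macrophage-like cells. There, 19 were past 0.5 upwards and none downwards, with a median log2 ratio of 0.49 against -0.10 over all genes. The 3 highest with at least 100 UMIs were as follows. Nos2, which makes nitric oxide, had 495 and 1952 UMIs, with a lower bound of 1.82 on its log2 ratio. Gbp2b, a guanylate-binding protein gene, was at 57.6 and 163 CPM (interval 1.40 to 1.60), and Il18bp, an inhibitor of interleukin 18, at 97.1 and 243 CPM (1.33, 1.25 to 1.40). Ido1, which breaks down tryptophan, had 1 and 29 UMIs and was named after its values were seen. Icam1 (-0.18), Wars (-0.17) and Fcgr1 (0.02) were lowest. In tumor cell-like cells 27 of 40 were past 0.5 upwards and none downwards, with a median of 0.79 against -0.04. In M-MDSC-like cells it was 11 of 39 (median 0.30, against -0.05 over all genes and 4.80% of them higher) and in dendritic-like cells 9 of 37 (median 0.23, against -0.05 and 8.23%), both with none lower. In T-like cells 2 of 32 were higher and 4 lower, with a median of -0.01 against -0.06, close to the background of 6.71% higher and 12.0% lower. The backgrounds for macrophage-like and tumor cell-like cells were 5.07% and 5.19% higher. Scaling by TMM moved all macrophage-like log2 ratios up by 0.10.

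Of a list of other genes of the pathway, values in macrophage-like cells are given for those named by the rule. Rfx5, a partner of CIITA, was at 7.38 and 9.51 CPM (0.37, 0.04 to 0.69) and Irf2, a relative of Irf1, at 93.9 and 111 CPM (0.24, 0.14 to 0.33). The phosphatase gene Ptpn11 was at 64.2 and 50.4 CPM (-0.35, -0.47 to -0.22), Nfyb at 23.8 and 19.7 CPM (-0.27, -0.48 to -0.07) and Pias3 at 9.59 and 8.11 CPM (-0.24, -0.56 to 0.07).

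Across the 8 classes with at least 20 cells in each library, the genes most like each member in log2(CPM + 1), by Pearson's r among 13208 genes, were as follows, as a description over classes that share libraries. They were Paxx (0.98) and Lat (0.98) for Ifng, Mbnl1 and Mknk2 (both 0.99) for Ifngr1, Ctsh and Fam217b (both 0.98) for Ifngr2, and Gzme and Entpd5 (both 0.98) for Jak1. For Jak2 they were Cbfa2t3 (0.92) and Gmppb (0.91), for Irf1 Dip2a (0.99) and Tspan17 (0.98), and for Irf8 Arrdc1 (0.98) and Aim2 (0.97). For Socs1 they were Slc27a3 and Gm47204 (both 0.91), and for Ciita Trim25 and Klhl41 (both 0.99). Each was picked as highest among 13208 genes over only 8 classes, so a high r by itself does not show a link between genes.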

How the data were processed

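The authors deposited, for each library, a matrix of raw UMI counts from Cell Ranger (2.1.1, genome mm10, per the submitters' notes). A droplet counted as a cell from 500 genes and 1000 UMIs upwards, unless over 15% of its UMIs were mitochondrial. Counts were log-normalized, and 2000 variable genes without the 9 members, 30 principal components and Louvain clustering at resolution 0.5 (igraph 0.11.9) gave clusters, named from marker lists with limits set after seeing the data. Doublets were kept in the main analysis and removed in an alternative. Levels are summed counts per 1000000 UMIs (CPM) with exact Poisson intervals, ratios use exact binomial intervals of the count split, the fold for a call was a log2 ratio of 0.5 with at least 20 counts, and TMM came from edgeR 4.0.16. The code for the ratios was run on simulated counts with independent Poisson error. That checks the calculation, not how far counts clump in few cells or differ between mice. Members, gene lists and markers were chosen with earlier results of these data known. Named genes were the members, the 3 highest and 3 lowest of each list in macrophage-like cells with at least 100 counts, the 2 genes most like each member, and leading genes of clusters. Identifiers matched GENCODE for 32235 of 32285. One gene that the rule names is not reported here.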

Additional observations from a re-analysis of the deposited data

Results flagged for a closer look

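Ifng also appeared in data outside the comparisons. In the Lmo7-/- library 38 Ifng UMIs lay in 15 of the 3303 droplets left out by the filter on cells, with up to 11 in 1 droplet, against 3 UMIs in 3 of 2666 droplets of the Lmo7+/+ library. In the unnamed droplets with markers of both T cells and macrophages, Ifng was at 33.3 CPM in the Lmo7+/+ library and 41.0 CPM in the Lmo7-/- library. All 32 such droplets with Ifng also held a T cell UMI, as did 98.0% of all 253 such droplets. The group was named for T cell markers, so this does not set the droplets with Ifng apart.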

How the results depend on the processing

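Each library stands alone for its genotype, so intervals hold counting error only. No paired analysis was possible because each genotype had 1 library. The 7 member ratios past 0.5 in macrophage-like, M-MDSC-like, tumor cell-like and T-like cells were computed again under alternatives. Ratios in fibroblast-like and endothelial-like cells were not among them. The alternatives included other cell filters, doublets removed, other resolutions, 20 principal components, TMM and other scalings. Of 76 values, 75 kept their sign and 71 stayed past 0.5. The exception was Ifngr2 in T-like cells, 0.0635 with doublets removed. The T-like count of members past 0.5 was 0 under the strict filter, with doublets removed, at resolution 1.0, with 20 principal components, as a mean over cells and with at least 100 counts, and 2 with no filter on counts. At a log2 ratio of 1 the macrophage-like count was 0. The Ifng ratio in CD8 T-like cells was 1.38 under the strict filter. Without cells holding UMIs of the other class it was -0.15, and -0.52 in T-like cells; without the Gzmg and Gzme cluster, added after seeing the data, it was -0.16 and -0.39. The cause was not tested. The T-like and NK-like share of Ifng UMIs was 86.45% in the Lmo7-/- library under the strict filter, 92.23% and 88.22% with doublets removed, and 39.53% and 24.76% without cells holding UMIs of the other class, where the Ifng UMIs of the removed cells stay in the denominator. The share of macrophage-like cells with Ifng that held a T cell UMI was then 0% by construction.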

Other observations

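Genes that induce Ifng or carry that signal were also measured. In T-like cells Il12rb2, a chain of the interleukin 12 receptor, was at 72.9 CPM in the Lmo7+/+ library and 115 CPM in the Lmo7-/- library, a log2 ratio of 0.66 (0.29 to 1.03); it was singled out after its values were seen. In macrophage-like cells Stat4 was at 3.74 and 8.58 CPM (1.20, 0.79 to 1.62), Il27 at 3.69 and 8.16 CPM (1.14, 0.73 to 1.57) and Il12rb1 at 9.12 and 17.5 CPM (0.94, 0.67 to 1.21). Il12b (-0.15), Runx3 (-0.17) and Il18 (-0.04) were the lowest with at least 100 counts. Of the 14 genes of this list, 10 had at least 20 counts in macrophage-like cells, with 4 past 0.5 upwards and 1, Il18rap (26 and 17 UMIs, named after its values were seen), downwards, against 5.07% and 8.04% of all genes.

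T-like cells with a Cd4 UMI and no Cd8a or Cd8b1 UMI had Ifng at 351 and 177 CPM, from 66 and 82 cells, a log2 ratio of -0.99 (-1.62 to -0.36). Of their 55 and 38 Ifng UMIs, 51 and 25 lay in 20 and 25 cells of the cluster led by Tnfsf8 and Csf2. This ratio is therefore largely that cluster seen again. T-like cells with a Cd8a or Cd8b1 UMI and no Cd4 UMI had it at 119 and 143 CPM, a ratio of 0.27 (-0.07 to 0.63). The difference between these ratios was not tested.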
